A study of Mus musculus with 4 samples.

Results

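The transcripts of 10 genes of metal binding, iron and haem handling and oxidative stress were followed in single leukocytes of the mouse liver. The genes, taken by symbol, were Mt1, Mt2, Hmox1, Slc40a1, Fth1, Ftl1, Slc11a1, Prdx1, Txnrd1 and Srxn1, and all 10 were found among the features of the count matrices. The mice had the genotype IL-22sgBFP, and the blue fluorescent protein BFP served as a reporter of the cytokine IL-22. Liver CD45+ leukocytes were sorted by BFP into an IL-22-positive and an IL-22-negative fraction. Livers were taken 12 h after MC38 cells, a mouse colon cancer line, were injected into the spleen in PBS, or before any injection (0 h). The 4 groups were therefore IL-22-positive cells at 12 h, IL-22-positive cells at 0 h, IL-22-negative cells at 12 h and IL-22-negative cells at 0 h. They shared the genotype, the digestion with collagenase and DNase I, the Percoll enrichment, the CD45 sort and the 10x Genomics Single Cell 3' v2 chemistry.

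Each group was 1 library. How many mice contributed to it is not stated in the labels used here, and no group used here was injected without cancer cells. The injection, the cancer cells and the passing of 12 h cannot be told apart, and no difference below has a replicate check. Fractions are named by their sort labels.

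Metallothioneins are small cysteine-rich proteins that bind zinc and copper, and their genes are switched on by the zinc-sensing factor MTF1 at metal response elements and by glucocorticoids. Macrophages of the liver take up aged red cells, break down their haem with haem oxygenase, store the iron in ferritin and release it through ferroportin. Peroxiredoxins, thioredoxin reductase and sulfiredoxin remove peroxides or restore the proteins that do, and many of their genes are targets of the transcription factor NRF2.

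Mt1 and Mt2 lie side by side on the plus strand of mouse chromosome 8. In GRCm38, with GENCODE vM21, Mt1 spans bases 94179082 to 94180327 and Mt2 bases 94172664 to 94173568, with 5513 bases between the genes. Hmox1 lies on the same chromosome at 75093621 to 75100589. The promoters of Mt1 and Mt2 are shown because the levels of these neighbours did not always move together. They come from the RefSeq table of GRCm38.p6 and run from 250 bases before to 30 bases after each RefSeq start, 5' to 3' on the plus strand, at chr8:94178839-94179118 for Mt1 and chr8:94172368-94172647 for Mt2. Capitals mark the core letters of metal response elements, TGCACNC or TGCGCNC, on either strand.
Mt1: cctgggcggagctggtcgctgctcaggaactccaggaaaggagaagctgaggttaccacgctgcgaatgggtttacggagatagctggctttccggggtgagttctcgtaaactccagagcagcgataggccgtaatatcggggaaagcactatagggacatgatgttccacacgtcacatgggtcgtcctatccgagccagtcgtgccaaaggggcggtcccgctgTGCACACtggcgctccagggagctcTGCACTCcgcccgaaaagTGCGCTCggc
Mt2: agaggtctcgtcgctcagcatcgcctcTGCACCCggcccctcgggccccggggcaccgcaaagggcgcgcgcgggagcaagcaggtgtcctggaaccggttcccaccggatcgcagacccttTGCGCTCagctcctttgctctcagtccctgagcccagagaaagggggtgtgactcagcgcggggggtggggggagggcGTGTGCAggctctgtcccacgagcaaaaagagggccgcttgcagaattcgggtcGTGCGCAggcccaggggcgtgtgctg
The Mt1 window held 3 matches, which began at -23, 3 and 21 from the start, all on the plus strand. The Mt2 window held 4 matches, which began at -223 and -128 on the plus strand and at -50 and 5 on the minus strand. Of 32851 RefSeq promoter windows of 300 bases, 1.97% held at least 3 such matches and 0.517% held at least 4. RefSeq windows were found for 8 of the 10 genes. Srxn1 had 1 match, and Fth1, Ftl1, Slc11a1, Prdx1 and Txnrd1 had none, while 25.7% of all windows held at least 1. The letters TGACNNNGC on either strand, the core of the antioxidant response element to which NRF2 binds, occurred in a window of Mt2, Prdx1, Txnrd1 and Srxn1 and in 12.4% of all windows. A match describes letters and is not a binding site. Windows follow RefSeq starts, and letters outside them were not read. A window without a match thus does not show that a gene lacks the element. The printed Mt2 window ends at 94172647, before the GENCODE start of 94172664. Hmox1 and Slc40a1 are not in the table.

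After filtering, 19048 cells were kept. They comprised 1345 IL-22-positive cells at 12 h with 5007250 unique molecular identifiers (UMIs, each a captured transcript), 283 IL-22-positive cells at 0 h with 1093362 UMIs, 9492 IL-22-negative cells at 12 h with 26799992 UMIs and 7928 IL-22-negative cells at 0 h with 17411977 UMIs. Ptprc, which encodes CD45, had a UMI in 61.6% to 83.6% of the cells of each library. Il22 had 0 UMIs in the 1345 IL-22-positive cells at 12 h, which allows a share of cells with a UMI of up to 0.223%, and 6 UMIs in 3 IL-22-positive cells at 0 h. In IL-22-negative cells it had 1 UMI in 1 cell at 12 h and 16 UMIs in 7 cells at 0 h. The share of cells with an Il22 UMI at 0 h was 1.06% (0.219% to 3.07%) in the positive and 0.0883% (0.0355% to 0.182%) in the negative fraction, while at 12 h the transcript did not mark the positive fraction. BFP is not among the features used here. In all, 151 cell barcodes occurred in more than 1 library, 116 of them in both IL-22-negative libraries.

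Cells were clustered without the 10 genes and named by marker lists, so a name such as monocyte-like was rebuilt here. Monocyte-like cells, clusters 10 and 11, numbered 1056 of the IL-22-positive cells at 12 h (78.5%) and 557 of the IL-22-negative cells at 12 h (5.87%). At 0 h they numbered 141 of the IL-22-positive (49.8%) and 139 of the IL-22-negative cells (1.75%). Cluster 11, led by Lcn2, Chil3 and Saa3, held 265 of the IL-22-positive and 245 of the IL-22-negative monocyte-like cells at 12 h, and 1 cell of each fraction at 0 h. A cluster led by Arg1 and Pf4, which was given no cell type name, held 47 IL-22-positive and 32 IL-22-negative cells, all at 12 h. The macrophage-like cluster, led by the complement genes C1qa and C1qc, held 58 and 34 IL-22-positive cells at 12 h and 0 h, against 7 and 5 IL-22-negative cells. Its macrophage markers summed to 20929 CPM at 12 h, with Timd4 and Marco at 0, and 22259 CPM at 0 h, with Clec4f, Marco and Cd5l at 0, in the positive fraction. The other classes were conventional dendritic cell-like (cDC-like), plasmacytoid dendritic cell-like (pDC-like), neutrophil-like, basophil-like, T-cell-like, NK-or-ILC1-like, B-cell-like and plasma-cell-like cells.

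Counts were summed over the cells of a class in a library and given as CPM, which scales the UMIs of each sum to the same total. A CPM does not separate more cells with a transcript from more transcript per cell. Intervals are exact 95% intervals and cover counting error only. Comparisons are ratios of CPM between 2 libraries. A gene was called measured in a comparison when each sum would hold at least 10 UMIs at the pooled rate, and past 2-fold when its ratio was at least 2 or at most 0.5. Beside each first count of the 10 genes past 2-fold stands the percentage of all measured genes past 2-fold in that direction.

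Mt1, the main metallothionein transcript here, stood highest in the Arg1-and-Pf4 cluster. There it reached 3489.7 CPM (interval 3188 to 3812) in IL-22-positive cells and 1812 CPM (1612 to 2030.3) in IL-22-negative cells at 12 h. Monocyte-like cells of the positive fraction had 969 CPM at 12 h and 435 CPM at 0 h, and those of the negative fraction had 610.4 CPM at 12 h and 363 CPM at 0 h. Macrophage-like cells of the positive fraction, with 826 CPM at 12 h and 537 CPM at 0 h, lay within the range of the monocyte-like cells. The cDC-like cells had a wide range, with 872 CPM in 36 IL-22-positive and 332 CPM in 427 IL-22-negative cells at 12 h, and 102 CPM in 115 IL-22-negative cells at 0 h. The IL-22-positive cDC-like cells thus stood beside the macrophage-like and monocyte-like cells, and the IL-22-negative ones below them. Plasma-cell-like cells of the negative fraction had 105 CPM at 12 h and 76.0 CPM at 0 h. The B-cell-like, NK-or-ILC1-like, pDC-like and T-cell-like cells of that fraction all lay between 4.76 and 18.8 CPM, and the order of these 4 lymphoid and plasmacytoid classes was not separated beyond counting error in every library.

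**Figure D1:**
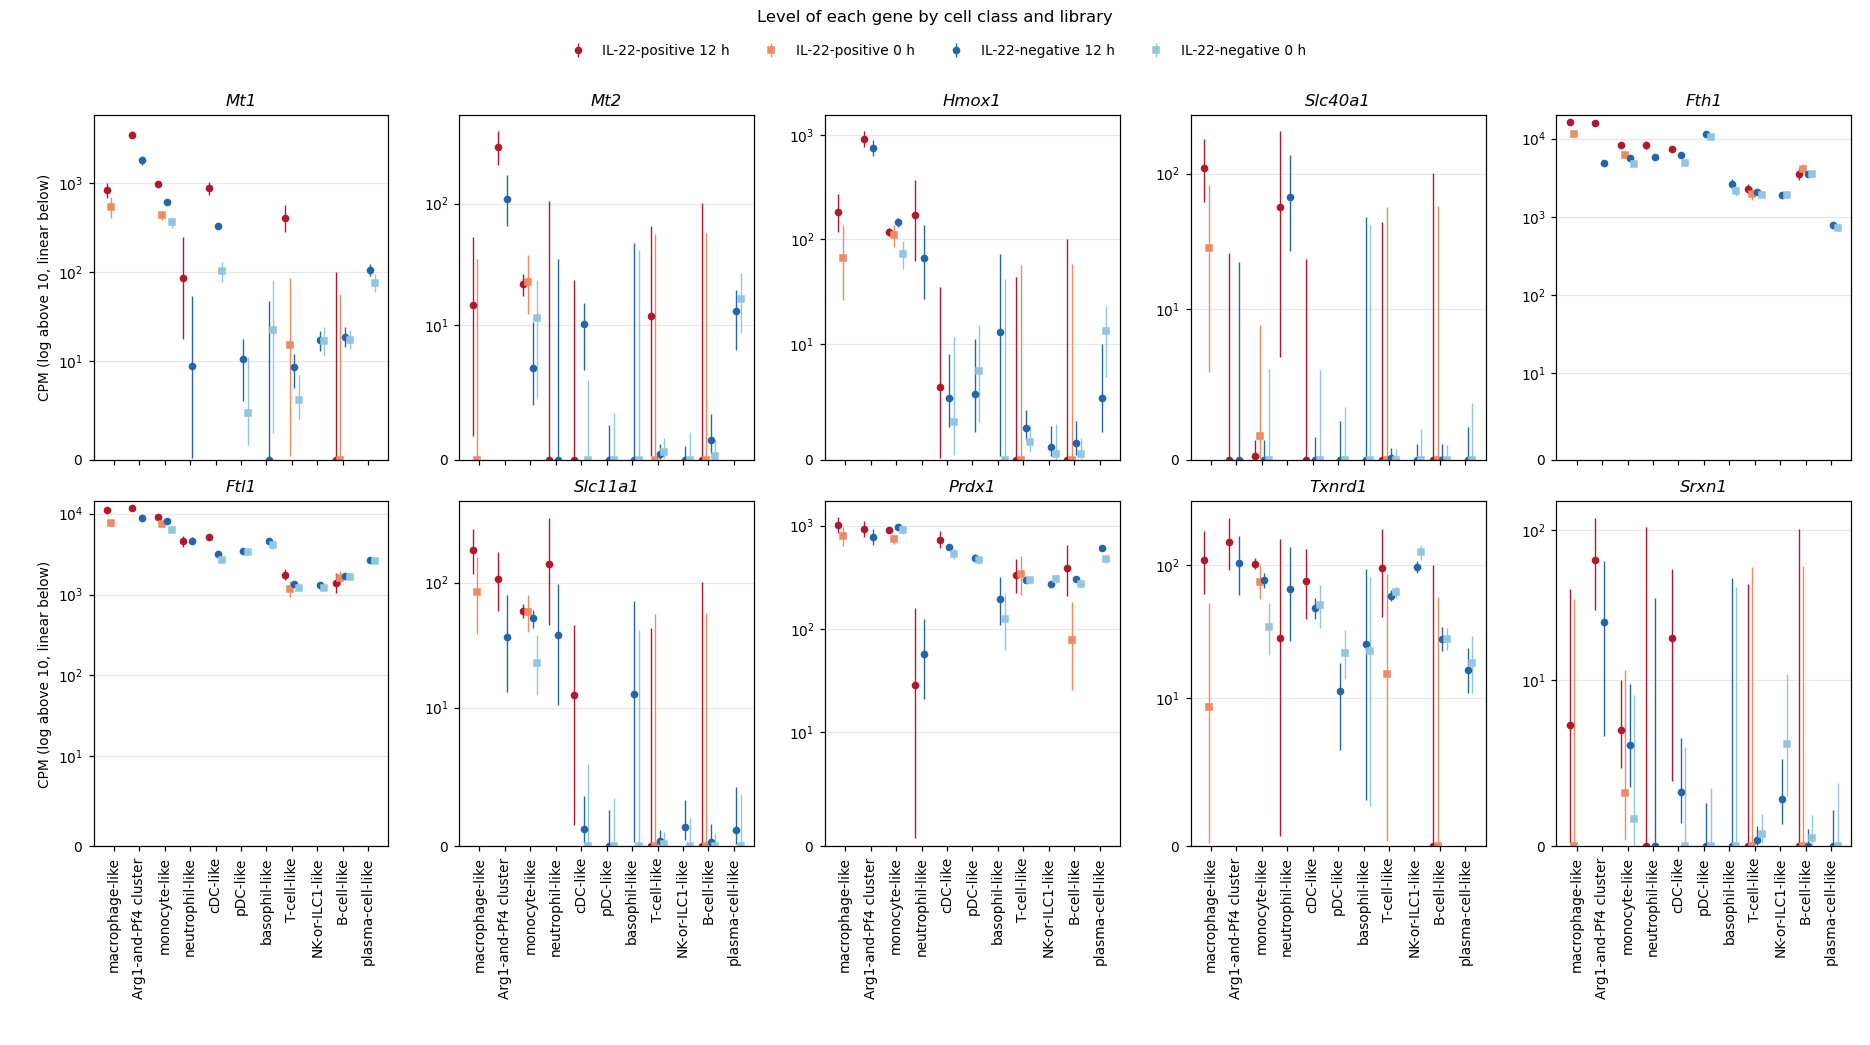
Level of each of the 10 genes by cell class (horizontal axis) and library, in CPM of the summed cells on an axis that is linear below 10 and logarithmic above, with exact 95% counting intervals, for classes of at least 20 cells. Mt1 stands highest in the Arg1-and-Pf4 cluster and Hmox1 likewise, while Fth1 and Ftl1 lie above 700 CPM in every named class shown.

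In monocyte-like cells Mt1 stood higher at 12 h than at 0 h in both fractions. The ratio of 12 h to 0 h was 2.23 (interval 1.97 to 2.53) in the IL-22-positive and 1.68 (1.46 to 1.94) in the IL-22-negative fraction. Between the fractions, the ratio of IL-22-positive to IL-22-negative monocyte-like cells was 1.59 (1.50 to 1.68) at 12 h and 1.20 (0.999 to 1.44) at 0 h, the last turning to 0.923 in thinned cells. The IL-22-positive library at 12 h was thus the highest of the 4, and the libraries at 0 h were not ordered beyond counting error. These 4 ratios share libraries and are not independent of each other. In the positive fraction the ratio of 12 h to 0 h was 1.32 under a strict cell filter. The filtered cells were clustered and named anew, which gave 392 monocyte-like cells at 12 h and 23 at 0 h. That value thus changes the filter and the clusters together. To compare cells at one depth, each was thinned to 1000 UMIs, which left 1024 cells at 12 h and 139 at 0 h in the positive fraction and 549 and 139 in the negative fraction. An Mt1 UMI was then seen in 46.4% of cells at 12 h and 20.9% at 0 h in the positive fraction, and in 36.4% and 18.7% in the negative fraction. Without thinning the shares were 70.0% and 42.6% in the positive and 68.9% and 46.8% in the negative fraction.

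That share was far above the one seen where the transcript was scarce. B-cell-like cells of the negative fraction had an Mt1 UMI in 1.52% of thinned cells at 12 h and 1.25% at 0 h, and in 2.85% and 2.75% without thinning. Median depth was 1591 and 1713.5 UMIs in those B-cell-like cells at 12 h and 0 h, against 4991 and 4436 UMIs in the monocyte-like cells of the same libraries. The monocyte-like cells of the positive fraction had medians of 4086.5 UMIs at 12 h and 4081 at 0 h.

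Mt1 was spread unevenly over cells. The median monocyte-like cell held 2 Mt1 UMIs in either fraction at 12 h and 0 in either fraction at 0 h. Cells with 10 or more numbered 118 of 1056 IL-22-positive cells at 12 h, which held 46.5% of the Mt1 UMIs, and 50 of 557 IL-22-negative cells at 12 h, which held 39.1%. At 0 h there were 7 of 141 IL-22-positive and 5 of 139 IL-22-negative cells with so many. In the Arg1-and-Pf4 cluster the top was longer still: 12 of 47 IL-22-positive cells held 81.1% of the Mt1 UMIs, and 9 of 32 IL-22-negative cells held 74.5%. The 0 h values leaned on single cells, since the top cell held 37 of 271 UMIs in the IL-22-positive and 35 of 222 in the IL-22-negative library; without the top cell of each library the 12 h to 0 h ratios were 2.53 and 1.95.

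**Figure D2:**
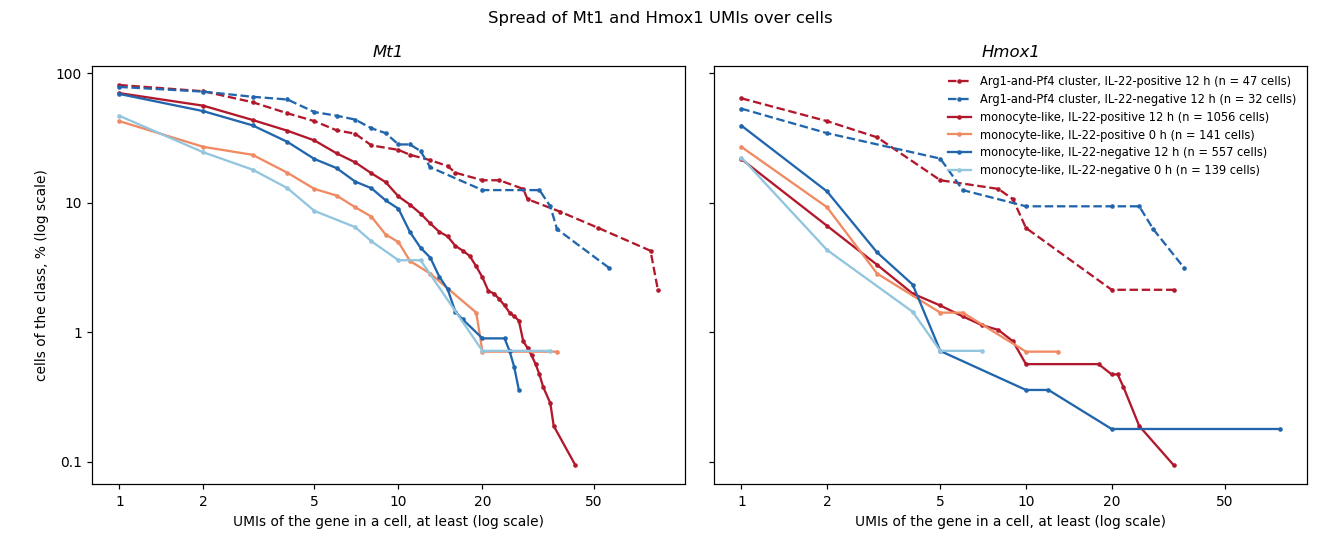
Percentage of cells of a class (vertical axis, log scale) with at least the number of Mt1 (left) or Hmox1 (right) UMIs on the horizontal axis (log scale), with solid lines for monocyte-like cells and dashed lines for the Arg1-and-Pf4 cluster, coloured by library. The 12 h lines for Mt1 lie above the 0 h lines in monocyte-like cells up to 10 UMIs, and the Hmox1 line of the IL-22-negative library at 12 h ends with 1 cell of 78 UMIs.

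The makeup of the monocyte-like class differed between libraries, so Mt1 was also read within finer clusters. At a clustering resolution of 2, a cluster led by C1qb, with Ace and Ear2 among its leading genes, held 28.0% of monocyte-like cells of the positive fraction at 12 h and 63.8% at 0 h, while in the negative fraction it held 17.6% at 12 h and 22.3% at 0 h. A cluster led by Chil3 held 45.4% at 12 h and 26.2% at 0 h in the positive fraction, and 67.1% and 71.2% in the negative fraction. In the C1qb-led cells Mt1 had 771 CPM at 12 h and 307 CPM at 0 h in the positive fraction, a ratio of 2.51 (2.06 to 3.09), and 438 and 142 CPM in the negative fraction, a ratio of 3.09 (1.79 to 5.77) that rests on 14 UMIs at 0 h. In the Chil3-led cells the levels were 1070.0 and 745 CPM in the positive fraction, a ratio of 1.44 (1.21 to 1.72), and 657 and 414 CPM in the negative fraction, a ratio of 1.59 (1.36 to 1.85). At 12 h the positive to negative ratio was 1.76 (1.48 to 2.09) in C1qb-led, 1.63 (1.52 to 1.74) in Chil3-led and 1.73 (1.44 to 2.09) in Cxcl9-led cells, which carry interferon-response genes. Mt1 was therefore higher at 12 h than at 0 h, and higher in the positive than in the negative fraction at 12 h, in each of these clusters where both libraries had at least 20 cells.

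Other lists moved with these libraries. The sum of 10 monocyte markers in monocyte-like cells was 18439 and 27097 CPM in the positive fraction at 12 h and 0 h, against 27517 and 39462 CPM in the negative fraction, with all 10 detected in each. The sum of 8 T-cell markers was 0.699 and 1.61 CPM in the positive fraction, with 7 of the 8 at 0 at either time, against 128 and 160 CPM in the negative fraction with all 8 detected. The sum of 8 B-cell markers was 13.3 and 53.0 CPM in the positive and 192 and 167 CPM in the negative fraction. The sum of 8 neutrophil markers was 2296 and 61.0 CPM in the positive fraction, with 6 and 2 of the 8 detected, against 3162 and 42.5 CPM in the negative fraction, again with 6 and 2 detected. The part of these lists in the Mt1 ratios was not tested. Hepatocytes make metallothionein too. The sum of 12 hepatocyte markers in monocyte-like cells was 134 CPM at 12 h and 93.1 CPM at 0 h in the positive fraction, against 122 and 101 CPM in the negative fraction. The sum of 9 acute-phase genes was higher at 12 h. It was 3197 CPM (8 detected) at 12 h and 562 CPM (3 detected) at 0 h in the positive fraction. In the negative fraction it was 3807 CPM (7 detected) and 1270 CPM (3 detected). Among the 9 were Lcn2, Saa3 and Hp, which are also leading genes of the monocyte-like cluster 11. The sum thus does not stand for hepatocyte RNA alone, and its part in the Mt1 ratios was not tested. In B-cell-like cells of the same libraries Mt1 had a ratio of 12 h to 0 h of 1.08 (0.753 to 1.54) in the negative fraction.

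Among the named classes of the negative fraction, the largest measured ratio of 12 h to 0 h was that of Mt1 in cDC-like cells. It rested on 807 UMIs in 427 cells at 12 h and 63 UMIs in 115 cells at 0 h, and its ratio was 3.26 (2.52 to 4.29). It was the only 1 of 5 measured members past 2-fold there, where 2.44% of 4841 measured genes had a ratio of at least 2 and 2.05% of at most 0.5. At 12 h Mt1 was higher in the 36 IL-22-positive than in the IL-22-negative cDC-like cells, by a ratio of 2.63 (2.18 to 3.15), or 2.28 without the top cell of each library. It was the 1 of 4 measured members past 2-fold there, where 2.54% of measured genes reached 2, 15.3% were at or below 0.5 and the median log2 ratio of all genes was -0.15. The 12 IL-22-positive cDC-like cells at 0 h, with 445 CPM, were too few for a ratio. Clusters were scored by the mean log2 excess of a list's strongest markers over the mean of all clusters. The cDC-like cluster scored 2.33 on cDC and 2.10 on monocyte markers, a narrow margin for its name. The part of monocyte-like cells in these Mt1 ratios was not tested.

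In the other classes of the negative fraction the Mt1 ratio of 12 h to 0 h was 1.55 (1.00 to 2.43) in T-cell-like cells, on 68 and 32 UMIs, 1.02 (0.649 to 1.64) in NK-or-ILC1-like and 1.39 (1.05 to 1.84) in plasma-cell-like cells. The direction in T-cell-like cells turned when cells were thinned, with a ratio of 0.432. As reported, none of the members measured in these classes, or in B-cell-like, pDC-like and basophil-like cells, was past 2-fold. Among all measured genes, ratios of at least 2 and at most 0.5 made up 0.844% and 1.63% in T-cell-like, 0.655% and 1.58% in NK-or-ILC1-like, 4.57% and 3.41% in plasma-cell-like, 0.593% and 2.68% in B-cell-like, 1.16% and 2.19% in pDC-like and 7.64% and 5.1% in basophil-like cells. In the positive fraction 32 T-cell-like cells at 12 h held 34 Mt1 UMIs, against 1 UMI in 20 cells at 0 h, but 33 of the 34 were in 1 cell. That ratio of 26.2 (4.40 to 1066), the 1 of 4 measured members past 2-fold where 3.61% of measured genes reached 2 and 9.64% were at or below 0.5, describes 1 cell. The same 32 cells held 355 CPM of hepatocyte markers, with 5 of 12 detected, against 0 CPM in the 20 cells at 0 h, and their part in the value was not tested.

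Small sums of the positive fraction allowed few further comparisons. In B-cell-like cells of the positive fraction neither of 2 measured members, Fth1 and Ftl1, was past 2-fold between 12 h and 0 h, where 3.82% and 9.41% of genes had ratios of at least 2 and at most 0.5. Between the fractions, 0 of 3 measured members were past 2-fold in T-cell-like cells at 12 h, with 0.628% and 17.3% of genes, and 0 of 3 at 0 h, with 0.411% and 6.16%. At 12 h it was 0 of 3 in B-cell-like cells, with 1.44% and 13.4%, and 0 of 2 in neutrophil-like cells, with 1.63% and 24.4%, again for ratios of at least 2 and at most 0.5. The clusters of cells with few UMIs were kept apart from the named classes. In these the Mt1 ratio of 12 h to 0 h in the negative fraction was 3.64 (1.91 to 7.03) on 24 and 19 UMIs, the 1 of 5 measured members past 2-fold where 2.16% and 2.89% of genes were. Ftl1, at 1524.7 CPM in the positive and 608 CPM in the negative fraction at 12 h, was the 1 of 2 measured members past 2-fold between the fractions, where 7.86% of genes reached 2, 37.1% were at or below 0.5 and the median log2 ratio was -0.68.

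Mt2 was sparser, with 277 UMIs over all kept cells against 9217 for Mt1, and its ratios were not always those of Mt1. In monocyte-like cells it had 21.7 CPM at 12 h (93 UMIs) and 22.5 CPM at 0 h (14 UMIs) in the positive fraction, a ratio of 0.963 (0.546 to 1.83) where Mt1 had 2.23. Of the 14 UMIs at 0 h, 5 were in 1 cell, and without the top cell of each library the Mt2 ratio was 1.37, so its direction was not fixed at this depth. In the negative fraction it had 6.82 CPM at 12 h (19 UMIs) and 11.5 CPM at 0 h (7 UMIs), too few to be measured. At 12 h Mt2 was higher in monocyte-like cells of the positive than of the negative fraction, by a ratio of 3.18 (1.92 to 5.51), or 3.48 without the top cell of each. Mt2 was the only 1 of 9 measured members past 2-fold in that comparison, where 2.9% of measured genes had a ratio of at least 2 and 6.47% of at most 0.5.

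In IL-22-positive monocyte-like cells at 12 h Mt2 was seen more often in cells that held Mt1. Among these cells, thinned, Mt2 was seen in 3.16% (1.78% to 5.16%) of 475 cells with an Mt1 UMI. In 549 cells without one the share was 0.364% (0.0441% to 1.31%). In the other monocyte-like sums the intervals overlapped, as in the negative fraction at 12 h, with 2 of 200 and 1 of 349 cells. In IL-22-negative cDC-like cells at 12 h Mt2 was seen in 4.44% (1.22% to 10.99%) of 90 cells with Mt1. In 335 cells without Mt1 the share was 0.597% (0.0724% to 2.14%), and these intervals overlapped too. There Mt2 had 25 UMIs in 427 cells at 12 h and 0 in 115 cells at 0 h, in sums too small to be measured, and the exact interval of the ratio began at 1.60. The 36 IL-22-positive cDC-like cells at 12 h held no Mt2 UMI, and the interval of their ratio to the negative fraction reached up to 2.44. Plasma-cell-like cells also held Mt2, with 22 UMIs at 12 h and 16 UMIs at 0 h in the negative fraction, a ratio of 0.788 (0.396 to 1.61).

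The Arg1-and-Pf4 cluster had the highest Mt2 level, with 290.2 CPM in IL-22-positive and 109 CPM in IL-22-negative cells at 12 h, a ratio of 2.65 (1.49 to 4.90). A few cells carried it, as 25 of 41 UMIs were in 1 IL-22-positive cell and 9 of 18 in 1 IL-22-negative cell. Without the top cell of each the ratio was 2.12. In the wider set of 157 IL-22-positive and 51 IL-22-negative cells that resolution 2 placed in the Arg1-led cluster, the Mt2 ratio was 1.28 (0.745 to 2.28) and the Mt1 ratio 1.26 (1.11 to 1.42).

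Hmox1 encodes the inducible haem oxygenase, which opens the haem ring and frees its iron. It was a myeloid transcript: 906 CPM in IL-22-positive and 754 CPM in IL-22-negative cells of the Arg1-and-Pf4 cluster at 12 h, where it is itself among the leading genes at resolution 2. Macrophage-like cells of the positive fraction had 183 CPM at 12 h and 66.0 CPM at 0 h. Monocyte-like cells had 118 CPM at 12 h and 109 CPM at 0 h in the positive fraction, against 146 and 72.0 CPM in the negative fraction. Neutrophil-like cells held 6 UMIs in the positive and 7 UMIs in the negative fraction at 12 h. Their sums of 35353 and 104690 UMIs were too small to place them among the other myeloid classes. The cDC-like, pDC-like and lymphoid classes of the negative fraction lay between 0.522 and 13.4 CPM, below all 4 monocyte-like sums.

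In monocyte-like cells the 12 h and 0 h levels of Hmox1 differed in the negative fraction, with a ratio of 2.03 (1.48 to 2.84). They did not differ beyond counting error in the positive fraction, with a ratio of 1.08 (0.835 to 1.41). The second ratio was 0.600 under the strict cell filter, with cells clustered anew. At resolution 2, where only the Chil3-led cluster was named monocyte-like, it was 0.699. A test of the difference between the ratios of the fractions was not possible with 1 library each. Of 407 UMIs in the IL-22-negative library at 12 h, 78 were in 1 cell, and without the top cell of each library the ratio was 1.94. Thinned cells had an Hmox1 UMI in 11.5% of IL-22-negative cells at 12 h and 3.60% at 0 h, and in 7.62% and 7.19% of IL-22-positive cells. Without thinning the shares were 39.3% and 22.3% for the negative and 21.7% and 27.0% for the positive fraction. B-cell-like cells of the negative fraction had an Hmox1 UMI in 0.169% of thinned cells at 12 h and 0.10% at 0 h (0.269% and 0.0980% without thinning).

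Hmox1, Slc11a1 and Txnrd1 were the 3 of 7 measured members past 2-fold, all higher at 12 h, in monocyte-like cells of the negative fraction, where 4.2% of 5186 measured genes had a ratio of at least 2 and 1.79% of at most 0.5. When cells were thinned the ratios were 4.30 for Hmox1, 1.42 for Txnrd1 and 2.53 for Slc11a1, the last on too few UMIs to be measured. Hmox1 was also below 2 under the strict cell filter with new clusters (1.87) and in the Chil3-led cells, the only monocyte-like ones at resolution 2 (1.71). Slc11a1 was below 2 with doublets kept and cells clustered anew (1.86). In those of the positive fraction 1 of 8 measured members was past 2-fold, Mt1, where 3.99% of 5169 genes had a ratio of at least 2 and 4.26% of at most 0.5. The 2 comparisons use different libraries throughout.

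Between the fractions, Hmox1 was lower in IL-22-positive than in IL-22-negative monocyte-like cells at 12 h, with a ratio of 0.805 (0.705 to 0.920), but 0.931 without the top cells. In cluster 11 it had 51.1 CPM in 265 IL-22-positive and 131 CPM in 245 IL-22-negative cells, a ratio of 0.391 (0.292 to 0.518), and 0.401 without the top cells. In that cluster 8.62% of measured genes had a ratio of at most 0.5. In cluster 10 the ratio was 0.922 (0.784 to 1.09), and 1.30 without the top cells. The finer clusters differed in direction. Chil3-led cells had 62.6 CPM in the positive and 116 CPM in the negative fraction at 12 h, a ratio of 0.542 (0.435 to 0.673), while Cxcl9-led cells had 221 and 109.9 CPM, a ratio of 2.01 (1.40 to 2.98) that was 1.79 without the top cells. At 0 h the ratio over all monocyte-like cells was 1.52 (1.02 to 2.27).

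**Figure D3:**
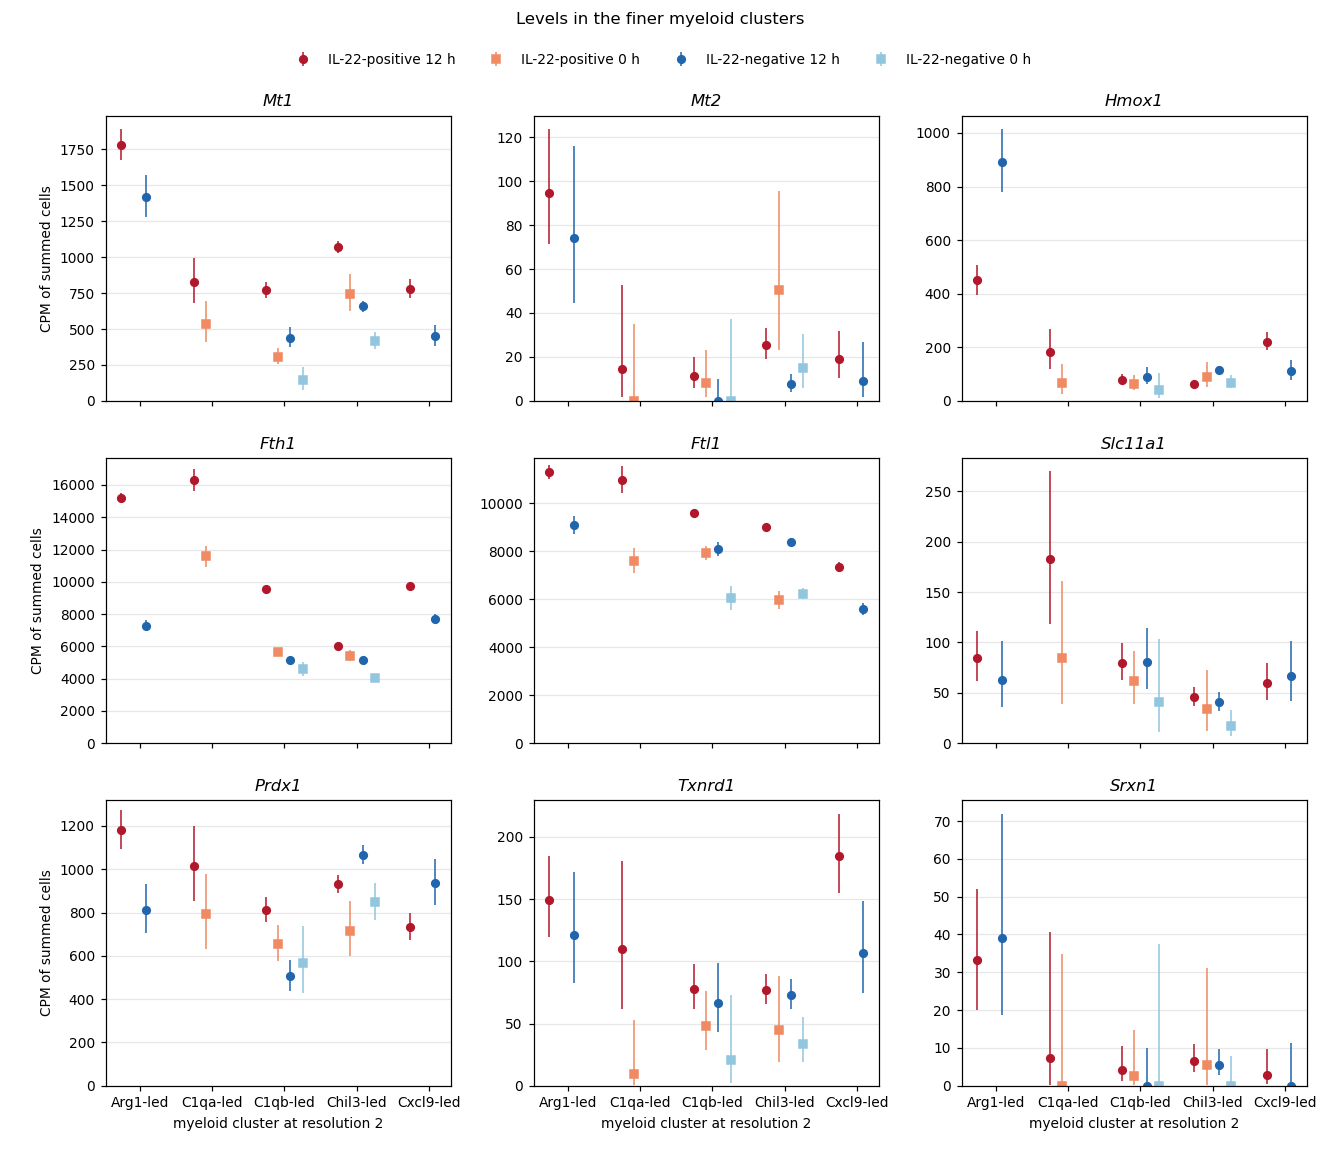
Levels of 9 of the genes in CPM of the summed cells (vertical axis) in the myeloid clusters at resolution 2, named by their leading gene, with exact 95% counting intervals, for libraries with at least 20 cells. Mt1 is higher at 12 h (circles) than at 0 h (squares) in the C1qa-led, C1qb-led and Chil3-led clusters, and Hmox1 in the Arg1-led cluster is 449 CPM in IL-22-positive and 891 CPM in IL-22-negative cells, 1 of which held 78 UMIs.

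A few cells held much of the Hmox1 of the Arg1-and-Pf4 cluster. In IL-22-positive cells 33 of 128 UMIs were in 1 cell, and in IL-22-negative cells 36, 28 and 25 of 124 were in 3 cells. The ratio of 1.20 (0.931 to 1.55) did not separate the fractions there. In the wider Arg1-led set at resolution 2 the levels were 449 CPM in IL-22-positive and 891 CPM in IL-22-negative cells, a ratio of 0.504 (0.420 to 0.605), and 0.667 without the top cells. The direction of the Hmox1 difference in Arg1-expressing cells thus changed with the clustering.

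Haem is the substrate of the enzyme that Hmox1 encodes, so erythroid markers are given beside it. They summed to 3343 CPM in IL-22-negative monocyte-like cells at 12 h and to between 1.61 and 2.10 CPM in the other 3 monocyte-like sums. All but 3.61 CPM of the 3343 came from 2 cells with 4659 and 4642 haemoglobin UMIs, 54.0% and 57.9% of their transcripts. Each of these cells held 1 Hmox1 UMI, and without them the Hmox1 ratio of 12 h to 0 h was 2.03 (1.49 to 2.84).

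Slc40a1 encodes ferroportin, the exporter through which macrophages release iron. It was the rarest of the 10, with 32 UMIs in all kept cells. Macrophage-like cells of the positive fraction held 15 UMIs at 12 h (109.7 CPM) and 3 UMIs at 0 h (28.3 CPM), a ratio of 3.88 (1.10 to 20.9) in sums too small to be measured. Neutrophil-like cells held 2 UMIs in the positive and 7 UMIs in the negative fraction at 12 h, at 56.6 and 66.9 CPM. Monocyte-like cells had 1 UMI at each time in the positive fraction and 0 in the negative fraction, which in 557 cells at 12 h allows a share of cells with a UMI of up to 0.539%. No UMI was seen in the Arg1-and-Pf4 cluster, so Slc40a1 did not follow Hmox1 there. No thinned monocyte-like cell held both transcripts, but Slc40a1 was too rare in these cells for an overlap to be seen. Among thinned macrophage-like cells of the positive fraction at 12 h, 2 of 12 with Hmox1 held Slc40a1, and 2 of 38 without it. The shares had overlapping intervals, 2.09% to 48.4% and 0.644% to 17.7%.

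Fth1 and Ftl1 encode the heavy and light chains of ferritin, the cell's iron store, of which the heavy chain oxidises the iron. Fth1 was highest in macrophage-like cells, with 16322 CPM at 12 h and 11572 CPM at 0 h in the positive fraction, in IL-22-positive cells of the Arg1-and-Pf4 cluster, with 15721 CPM, and in pDC-like cells of the negative fraction, with 11379 CPM at 12 h and 10507 CPM at 0 h. In monocyte-like cells it had 8377 CPM at 12 h and 6245 CPM at 0 h in the positive fraction, against 5672 and 4687 CPM in the negative fraction. Ftl1 had 9064 and 7424 CPM there in the positive and 8146 and 6267 CPM in the negative fraction. Plasma-cell-like cells held the least Fth1 of the named classes with at least 20 cells, 784 CPM at 12 h and 713 CPM at 0 h, and 2692 and 2609 CPM of Ftl1.

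Both ferritin transcripts were higher at 12 h than at 0 h in monocyte-like cells of either fraction, by less than 2-fold. The Fth1 ratio was 1.34 (1.30 to 1.39) in the positive and 1.21 (1.16 to 1.26) in the negative fraction, and the Ftl1 ratio was 1.22 (1.18 to 1.26) and 1.30 (1.26 to 1.35). In cDC-like cells of the negative fraction the ratios were 1.25 (1.20 to 1.30) for Fth1 and 1.16 (1.10 to 1.23) for Ftl1. The T-cell-like cells of that fraction, with far more UMIs, had 1.10 (1.07 to 1.13) and 1.11 (1.08 to 1.15). B-cell-like cells had 1.01 (0.984 to 1.03) for Fth1 and 1.04 (1.01 to 1.08) for Ftl1.

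Whether the fractions differed more in Fth1 or in Ftl1 depended on the cells. At 12 h the positive to negative ratio in monocyte-like cells was 1.48 (1.45 to 1.50) for Fth1 and 1.11 (1.09 to 1.13) for Ftl1. In the C1qb-led cluster it was 1.86 (1.77 to 1.95) and 1.18 (1.13 to 1.23), and in the Chil3-led cluster 1.17 (1.14 to 1.20) and 1.07 (1.05 to 1.09). In the Cxcl9-led cells it was 1.27 for Fth1 and 1.31 for Ftl1, and in cDC-like cells 1.22 (1.15 to 1.29) for Fth1 and 1.65 (1.53 to 1.77) for Ftl1. The Arg1-and-Pf4 cluster had 15721 CPM of Fth1 in IL-22-positive and 4793 CPM in IL-22-negative cells, a ratio of 3.28 (3.02 to 3.56), beside 11828 and 8764 CPM of Ftl1, a ratio of 1.35 (1.26 to 1.45). Fth1 and Mt2 were the 2 of 7 measured members past 2-fold in that comparison, where 6.75% of 1895 measured genes had a ratio of at least 2 and 9.18% of at most 0.5. In the wider Arg1-led set Fth1 had 15202 and 7283 CPM, a ratio of 2.09 (1.99 to 2.20). Median depth in the Arg1-and-Pf4 cluster was 2480 UMIs in IL-22-positive and 5167.5 UMIs in IL-22-negative cells, and the sums also differed in other lists. The 9 acute-phase genes had 5599 CPM in IL-22-positive and 1338 CPM in IL-22-negative cells, with 3 detected in each, and the 6 platelet markers, of which Pf4 and Ppbp were detected, had 5245 and 2408 CPM. The 8 T-cell markers were all at 0 in IL-22-positive cells and had 225 CPM in IL-22-negative cells, and the 8 B-cell markers had 28.3 CPM (3 detected) and 231 CPM (7 detected). The part of depth and of these lists in the ratios of the cluster, those of Mt1, Mt2 and Hmox1 included, was not tested.

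Macrophage-like cells of the positive fraction had higher levels of all 6 measured members at 12 h than at 0 h. Over all 1464 genes measured there the median log2 ratio was 0.15, 9.02% had a ratio of at least 2 and 5.94% of at most 0.5, and 2 of the 6 members were past 2-fold. The ratios were 1.54 (1.11 to 2.15) for Mt1, 1.41 (1.31 to 1.51) for Fth1, 1.44 (1.32 to 1.57) for Ftl1 and 1.28 (0.972 to 1.70) for Prdx1. Past 2-fold were Hmox1, at 2.77 (1.17 to 7.59) on 25 UMIs at 12 h and 7 at 0 h, and Slc11a1, at 2.16 (0.973 to 5.25) on 25 and 9 UMIs. These rest on 58 cells at 12 h and 34 at 0 h, and the interval of Slc11a1 includes 1. Txnrd1 had 15 UMIs at 12 h and 1 at 0 h, a ratio of 11.6 (1.79 to 490.0) in sums too small to be measured. Other values moved between the same sums. Median depth was 2183 UMIs at 12 h and 3308 UMIs at 0 h, the 10 monocyte markers had 5843 CPM (8 detected) and 16039 CPM (7 detected), the 12 hepatocyte markers 176 CPM (4 detected) and 452 CPM (6 detected), and the 8 endothelial markers 14.6 CPM (2 detected) and 311 CPM (3 detected). Their part in the ratios of the macrophage-like cells, that of Slc40a1 included, was not tested.

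Slc11a1 encodes NRAMP1, a metal pump that draws iron out of the phagosome. It was highest in myeloid classes, with 183 CPM at 12 h and 84.8 CPM at 0 h in macrophage-like cells of the positive fraction, 106 CPM in IL-22-positive and 36.5 CPM in IL-22-negative cells of the Arg1-and-Pf4 cluster, and between 22.9 and 59.1 CPM in monocyte-like cells. Neutrophil-like cells held 5 UMIs in the positive and 4 UMIs in the negative fraction at 12 h. Their sums of 35353 and 104690 UMIs were too small to place them among the other myeloid classes. In cDC-like, pDC-like and lymphoid cells of the negative fraction Slc11a1 lay at or below 1.42 CPM. In monocyte-like cells of the positive fraction the levels were 59.1 CPM at 12 h and 57.8 CPM at 0 h, and in the negative fraction 51.7 CPM at 12 h (144 UMIs) and 22.9 CPM at 0 h (14 UMIs). The IL-22-negative library at 0 h stood apart from the other 3. It was also the lowest in the sum of 11 macrophage markers, with 50.7 CPM and 9 of the 11 at 0. The positive fraction had 762 CPM (8 detected) at 12 h and 819 CPM (6 detected) at 0 h. The negative fraction had 506 CPM (6 detected) at 12 h. Clec4f and Timd4 were at 0 in each of these sums, whereas C1qa was at 0 only in the IL-22-negative library at 0 h. The part of this list in the ratios was not tested. The Slc11a1 ratio of 12 h to 0 h was 2.26 (1.30 to 4.23) in the negative and 1.02 (0.720 to 1.49) in the positive fraction, and the positive to negative ratio was 2.52 (1.33 to 5.06) at 0 h and 1.14 (0.929 to 1.41) at 12 h. In thinned cells the ratio near 1 in the positive fraction was 0.802 and that at 12 h between the fractions 0.871.

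Prdx1 encodes a peroxiredoxin, an enzyme that reduces hydrogen peroxide. It was present in every class but low in neutrophil-like cells, which had 28.3 CPM in IL-22-positive and 57.3 CPM in IL-22-negative cells at 12 h. These values rest on sums of 35353 and 104690 UMIs. The highest levels were those of monocyte-like cells, with 901 CPM at 12 h and 735 CPM at 0 h in the positive and 979 and 908 CPM in the negative fraction, and of the macrophage-like and Arg1-and-Pf4 cells, between 772 and 1016 CPM in sums of at least 20 cells. T-cell-like and B-cell-like cells of the negative fraction had between 269 and 301 CPM. The ratio of 12 h to 0 h in monocyte-like cells was 1.22 (1.11 to 1.35) in the positive and 1.08 (0.983 to 1.18) in the negative fraction, the second turning to 0.886 in cluster 10 alone. Between the fractions Prdx1 was lower in positive than in negative monocyte-like cells at both times, with ratios of 0.920 (0.876 to 0.967) at 12 h and 0.810 (0.714 to 0.918) at 0 h, but in cluster 10 alone the ratio at 12 h was 1.03. In C1qb-led cells at 12 h it was the other way round, at 812 CPM in the positive and 505 CPM in the negative fraction, a ratio of 1.61 (1.37 to 1.89).

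Plasma-cell-like cells of the negative fraction had 612 CPM of Prdx1 at 12 h and 474 CPM at 0 h, a ratio of 1.29 (1.15 to 1.44). In B-cell-like cells at 0 h, 5 Prdx1 UMIs in 30 IL-22-positive cells against 269 CPM in 2040 IL-22-negative cells gave a ratio of 0.290 (0.0938 to 0.678). It was the 1 of 3 measured members past 2-fold there, where 1.57% of measured genes had a ratio of at least 2 and 5.88% of at most 0.5.

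Txnrd1 encodes the cytosolic thioredoxin reductase, which keeps thioredoxin reduced with NADPH. At 0 h it was lower in monocyte-like than in NK-or-ILC1-like and T-cell-like cells of the negative fraction. NK-or-ILC1-like cells of the negative fraction had 97.7 CPM at 12 h and 125 CPM at 0 h, T-cell-like cells 59.3 and 63.0 CPM and B-cell-like cells 28.1 and 28.2 CPM. Monocyte-like cells had 102 CPM at 12 h and 75.5 CPM at 0 h in the positive fraction, against 77.2 and 34.4 CPM in the negative fraction. The ratio of 12 h to 0 h was 1.36 (1.00 to 1.88) in the positive and 2.25 (1.43 to 3.70) in the negative fraction, the second on 215 and 21 UMIs. In NK-or-ILC1-like cells the ratio was below 1, at 0.779 (0.657 to 0.926), and in T-cell-like cells it was 0.940 (0.813 to 1.09).

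At 0 h, Slc11a1 and Txnrd1 were the 2 of 8 measured members past 2-fold between the IL-22-positive and IL-22-negative monocyte-like cells, where 7.78% of 5284 measured genes had a ratio of at least 2 and 3.61% of at most 0.5. The Txnrd1 ratio was 2.20 (1.29 to 3.87) on 47 and 21 UMIs. It was 0.984 under the strict cell filter with cells clustered anew and 0.875 in thinned cells, so its direction at 0 h depended on the processing. At 12 h it was 1.33 (1.13 to 1.57), and in the Cxcl9-led cells 1.73 (1.19 to 2.59), from 185 CPM in IL-22-positive and 107 CPM in IL-22-negative cells.

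Srxn1 encodes sulfiredoxin, which repairs over-oxidised peroxiredoxins. It had 118 UMIs in all kept cells. Its highest level was that of the Arg1-and-Pf4 cluster, with 63.7 CPM (9 UMIs) in IL-22-positive and 24.3 CPM (4 UMIs) in IL-22-negative cells, a ratio of 2.62 (0.731 to 11.6). Monocyte-like cells had 6.99 CPM at 12 h (30 UMIs) and 3.21 CPM at 0 h (2 UMIs) in the positive fraction, against 6.10 CPM (17 UMIs) and 1.64 CPM (1 UMI) in the negative fraction. The ratio of 12 h to 0 h, 2.18 (0.552 to 18.8) in the positive and 3.73 (0.584 to 156) in the negative fraction, was not separable from 1 at this depth. At 12 h the positive to negative ratio in monocyte-like cells was 1.15 (0.612 to 2.21).

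**Figure D4:**
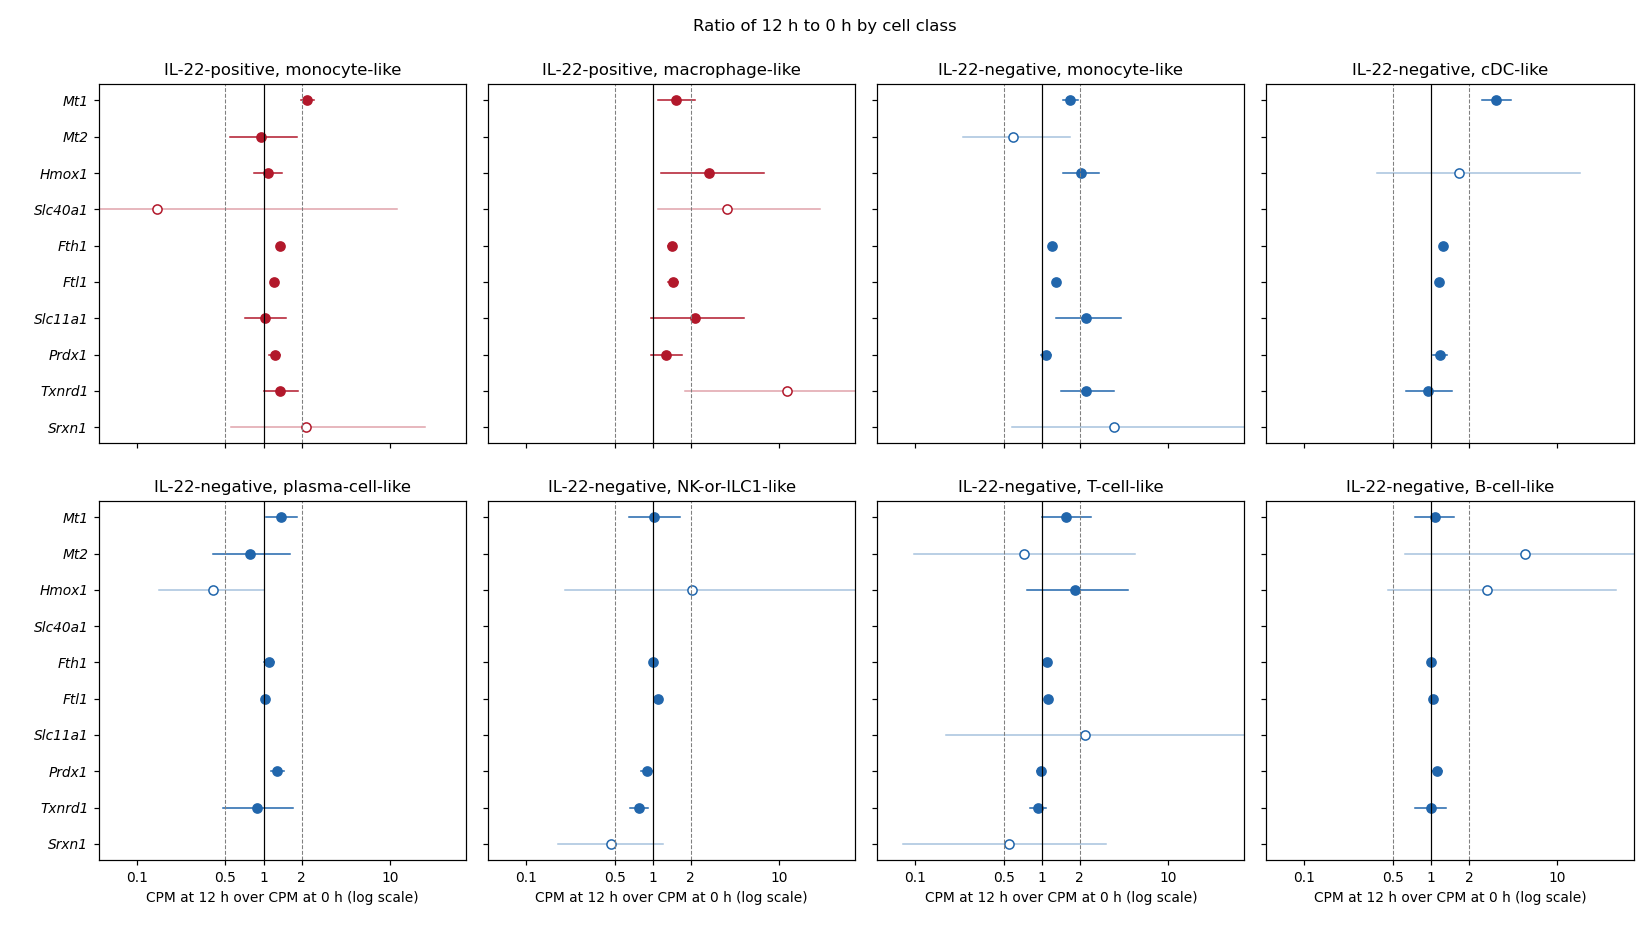
Ratio of the CPM at 12 h to the CPM at 0 h (horizontal axis, log scale) of each gene in 8 combinations of fraction and cell class, with exact 95% counting intervals, dashed lines at 0.5 and 2, filled points for genes with enough UMIs to be measured and open points for the rest. Mt1 in IL-22-positive monocyte-like cells (2.23) and IL-22-negative cDC-like cells (3.26) lies beyond 2, whereas the filled points of the NK-or-ILC1-like, T-cell-like and B-cell-like panels lie between 0.779 and 1.82.

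Without regard to cell class, the fractions differed far more. Over all cells at 12 h the IL-22-positive to IL-22-negative ratio was 8.0 for Mt1 (990 and 124 CPM), 7.94 for Mt2, 5.84 for Hmox1, 8.77 for Slc11a1, 4.90 for Srxn1, 3.48 for Ftl1 and 2.54 for Fth1, and 1.95 for Prdx1 and 1.80 for Txnrd1. Thus 7 of 9 measured members were past 2-fold, where 14.1% of all measured genes had a ratio of at least 2, 23.9% of at most 0.5 and the median log2 ratio of all genes was -0.17. Within monocyte-like cells the same ratios ran between 0.805 and 3.18. Monocyte-like cells were 78.5% of the IL-22-positive and 5.87% of the IL-22-negative library at 12 h. Over all cells of the negative fraction, Mt1, Hmox1 and Slc11a1 had ratios of 12 h to 0 h of 3.73, 4.80 and 5.09, where 3.71% of genes reached 2 and 3.22% were at or below 0.5, beside a share of monocyte-like cells of 5.87% at 12 h and 1.75% at 0 h. They were the 3 of 9 measured members past 2-fold. In the positive fraction Mt1 and Mt2, at 2.93 and 2.01, were 2 of 8, where 4.0% of genes reached 2 and 6.12% were at or below 0.5. Between the fractions at 0 h, Mt1, Fth1 and Ftl1 were the 3 of 5 measured members past 2-fold, at 10.2, 2.03 and 3.33, where 8.65% of genes reached 2, 17.9% were at or below 0.5 and the median log2 ratio was -0.25.

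Genes of the same pathways were read from 5 lists of 94 genes in all, all found among the features. In IL-22-negative monocyte-like cells, 1 of 24 measured NRF2 target and antioxidant genes was past 2-fold between 12 h and 0 h, where 4.2% of all measured genes had a ratio of at least 2 and 1.79% of at most 0.5. It was Gstm1, a glutathione transferase gene, with 109 CPM at 12 h and 267 CPM at 0 h, a ratio of 0.409. The median log2 ratio of the list was 0.06, beside 0.01 over all measured genes. None of 6 regulators of the NRF2 pathway, 10 further iron and haem genes or 8 zinc and copper genes was past 2-fold, with medians of -0.25, 0.12 and -0.02. Of 10 glucocorticoid-responsive genes, 3 were higher past 2-fold, with a list median of -0.07. They were Il1r2, for the decoy receptor of interleukin-1, with 136 UMIs at 12 h and 1 at 0 h, Ddit4, with 58 and 5 UMIs, and Fkbp5, with 59 and 2 UMIs, the last named after its values were seen.

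In monocyte-like cells of the positive fraction, between 12 h and 0 h, 1 of 24 NRF2 targets was past 2-fold, again Gstm1, with 72.2 and 146 CPM and a ratio of 0.494. Of all measured genes 3.99% had a ratio of at least 2 and 4.26% of at most 0.5. The haem transporter gene Slc48a1 was the 1 of 11 iron genes past 2-fold, with 21.7 CPM at 12 h and 54.6 CPM at 0 h, a ratio of 0.397. None of 8 zinc and copper genes and of 7 NRF2 regulators was, and of 10 glucocorticoid-responsive genes Il1r2 was higher, with 108 UMIs and 1 UMI, and Tsc22d3, which encodes GILZ, lower, at 35.6 and 86.7 CPM. The list medians were 0.13 for NRF2 targets, -0.15 for NRF2 regulators, -0.40 for iron, -0.04 for zinc and copper and -0.26 for glucocorticoid-responsive genes, beside -0.05 over all measured genes.

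Between the fractions at 12 h, monocyte-like cells had 1 of 14 zinc and copper genes past 2-fold, the zinc exporter gene Slc30a1, a known MTF1 target, with 15.6 CPM in IL-22-positive and 6.82 CPM in IL-22-negative cells, a ratio of 2.29 (1.36 to 4.03). Of all measured genes 2.9% had a ratio of at least 2 and 6.47% of at most 0.5. Of 19 iron genes Slc11a2, which encodes the iron importer DMT1, was past 2-fold, at 6.75 and 2.51 CPM. Of 28 NRF2 targets, Gclc, for the first enzyme of glutathione synthesis, was higher at 10.7 and 4.66 CPM, while Taldo1 and Prdx3 were lower, at 623 and 1410.3 CPM and at 14.2 and 43.4 CPM. Of 11 glucocorticoid-responsive genes, Cebpd and Tsc22d3 were lower and none higher, with ratios of 0.490 and 0.496. None of 8 NRF2 regulators was past 2-fold. The list medians were 0.24 for NRF2 regulators, 0.18 for zinc and copper, 0.18 for iron, 0.02 for NRF2 targets and 0.22 for glucocorticoid-responsive genes, beside 0.00 over all measured genes. 

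Across the 29 class and library sums of at least 20 cells, the levels of the 10 genes were set against all genes that reached 100 CPM in some sum, on log2(CPM + 10). The sums share libraries and differ in depth, so the correlations describe these sums only. Nearest to Mt1 were Fcgr1, Pid1 and Nupr1, with Pearson's r of 0.90, 0.89 and 0.89, and nearest to Mt2 were Olr1, Arg1 and Mmp19, at 0.90, 0.89 and 0.86. Hmox1 ran closest to Cd14 (0.95), Thbs1 (0.92) and Tlr4 (0.92), and Slc11a1 to Tlr2 (0.95), Cd300ld (0.94) and Tlr13 (0.94). Ftl1 was nearest to Sirpa (0.93), Fth1 to Bri3 (0.89), Prdx1 to Ndufc2 (0.91), Srxn1 to Timp1 (0.87), Slc40a1 to Cpd (0.91) and Txnrd1 to Id2 (0.77). Among the 10 genes themselves the closest were Hmox1 and Slc11a1 (0.89) and Hmox1 and Ftl1 (0.85), Mt1 and Mt2 had 0.73, and the lowest were Prdx1 and Slc40a1 (-0.28). Slc40a1 and Srxn1 had only 32 and 118 UMIs in all kept cells, and Srxn1 reached at most 63.7 CPM in a sum. Their correlations, that of Slc40a1 with Prdx1 included, thus rest on few counts.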

How the data were processed

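Liver CD45+ leukocytes of 4 libraries, 1 per combination of sort fraction and time, were measured with 10x Single Cell 3' v2. The deposited values are raw UMI counts per gene and cell barcode, written by Cell Ranger 4.0.0 per the file headers of the matrices, while the submitters' processing notes name Cell Ranger 3.0.1 and mm10. Other steps before deposit are not given in the sources used here. Paralogue reads cannot be separated further: the ferritin pseudogene Ftl1-ps1 had 995 UMIs and Mt3 110.

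Here barcodes needed 200 or more detected genes and a mitochondrial share below 10%. Doublets were called per library with Scrublet in scanpy 1.11.5, which removed 5 and 6 cells of the positive fraction at 12 h and 0 h and 607 and 373 of the negative fraction. In the IL-22-negative library at 12 h the automatic threshold called 1 cell, so the threshold of the IL-22-negative library at 0 h was used, a choice made after seeing this. Leiden clustering (leidenalg 0.10.2, resolution 1, 2000 variable genes, 30 components, 15 neighbours) left out the 10 genes, the listed pathway genes, Il22 and antigen receptor segments, and gave 23 clusters. Rebuilt names can differ from those of the study. UMIs were summed per class and library, with exact Poisson intervals, and ratios had exact conditional intervals (scipy 1.17.1). With 1 library per group there was no test and no p-value, and a ratio compares libraries, not conditions. Sums of at least 20 cells were compared. The share of cells that a count of 0 allows was taken as 3 cells of the total. PCR duplicates are collapsed by UMI, yet intervals cover counting error only. Correlations used a pseudocount of 10 CPM and genes reaching 100 CPM in a sum. The rule for pathway genes was to name up to 4 a comparison, those past 2-fold with the most UMIs, at most 2 a list in each direction; where a list had 5 or fewer past 2-fold the rest were named too, after their values were seen. The genes followed and the lists were chosen with earlier results of these data known. The ratios, their intervals and the 2-fold calls were checked on simulated sums drawn as Poisson counts, which is the model the intervals assume. Such sums lack the uneven spread of UMIs over cells. The check thus covers the computation and not how well the intervals hold for these cells.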

Additional observations from a re-analysis of the deposited data

How the results depend on the processing

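The counts of members past 2-fold were recomputed under other cell filters, clusterings, scalings and subsets. Of 85 such counts 63 stayed within 1.5 times the reported one and 22 did not, and of 586 single ratios 486 stayed within the counting interval of the reported ratio. A ratio crossed 1 in 41 of the 586, and 2 of these were ratios past 2-fold as reported (Txnrd1, below). Alternatives on cluster 10, cluster 11, the C1qb-led cluster and haemoglobin-rich cells were chosen after seeing the data. With a strict cell filter and with doublets kept, cells were clustered and named anew, so the clusters changed too. At resolution 2 only the Chil3-led cluster was named monocyte-like. The causes were not tested.

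In monocyte-like cells, between 12 h and 0 h, the 3 members past 2-fold in the negative fraction became 1.0 when cells were thinned (Hmox1) and 1.0 in the C1qb-led cluster alone (Mt1). The 1 member of the positive fraction, Mt1, became 0.0 under a strict cell filter of 500 genes and 5% mitochondrial UMIs, 0.0 at clustering resolution 2, where 37 cells stood for 0 h, and 3.0 with no filter on low counts. Between the fractions at 12 h, the 1 member, Mt2, became 2.0 under the strict cell filter and in cluster 11 alone (both times with Hmox1 lower), 2.0 with no filter on low counts, and 0.0 in thinned cells and in the C1qb-led cluster. Thinned, Mt2 was seen in 15 of 475 cells with Mt1 and 2 of 549 without in the positive fraction. In the negative fraction it was seen in 2 of 200 and 1 of 349 cells. The 0.0 in thinned cells rests on these few cells and does not by itself show a ratio below 2. Between the fractions at 0 h, the 2 members became 0.0 under the strict filter, at resolution 2 and in thinned cells, and 1.0 (Mt1) in the C1qb-led cluster. There the Txnrd1 ratio was 0.984 under the strict filter, on 23 and 91 cells, and 0.875 in thinned cells, against 2.20 as reported.

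Where no member was past 2-fold, T-cell-like cells of the negative fraction gave 1.0 under the strict filter (Hmox1), 1.0 at resolution 2 (Hmox1), 1.0 in thinned cells (Mt1, lower) and 2.0 with no filter on low counts. Without that filter B-cell-like cells gave 4.0, NK-or-ILC1-like cells 3.0, and T-cell-like cells between the fractions 6.0 at 12 h and 6.0 at 0 h. Cluster 11 alone was not run for the 3 comparisons with 0 h, where it held 1 cell per fraction. No paired analysis was possible because each group is 1 library with no replicate. Depth limits Slc40a1, Srxn1 and Mt2 most, with 32, 118 and 277 UMIs in all.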
